A study of Mus musculus with 6 samples.

Results

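Ifitm1, Ifitm2, Ifitm3 and Ifitm6, 4 of the 31053 genes listed for this series and 4 of its 7 Ifitm genes, were followed across the CD45+ immune cells of brains bearing a U87 xenograft. Members were chosen by their levels measured in these cells, namely their UMIs in recruited cells against microglia and those of Ifitm3 in microglia with and without interferon-induced transcripts or Apoe, so that these values are given as a description and were not tested. U87 is an established human glioma line. The cells came from the tumor-bearing right hemisphere of female SCID mice, labelled 6 to 8 weeks of age, which lack functional T and B lymphocytes but keep innate immune cells. In 3 mice the implanted U87 cells expressed IL-33, a cytokine of the IL-1 family, and the brains were taken at 3 weeks; in the other 3 mice U87 carried pcDNA, the vector control, and the brains were taken at 6 weeks and the effects of IL-33 and of time since implantation cannot be told apart. Hemispheres were dissociated, immune cells were enriched on Percoll and sorted for CD45, and droplet libraries that read the 3′ end of each transcript were made per mouse.

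The Ifitm genes code for small membrane proteins that sit in the plasma membrane and in endosomes, where Ifitm3 above all hinders the fusion of enveloped viruses with the cell. Interferons induce Ifitm1, Ifitm2 and Ifitm3 in many cell types. Some immune cells also carry these proteins without an interferon signal, and Ifitm6 is known from myeloid cells. Ifit3 and Isg15, used below to mark an interferon response, code for an RNA-binding antiviral protein and a ubiquitin-like modifier, and Apoe codes for the lipid carrier that activated microglia make in large amounts.

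The matrix held 40411 barcodes and 105560763 UMIs, with 9745192 to 24393841 UMIs per barcode suffix, of which 38751 barcodes passed the filters of the study on genes and mitochondrial counts. The labels tie the 6 suffixes to no mouse, and suffixes were not assigned by their size or content. All cells were therefore treated as 1 pooled sample of both groups of mice, no comparison was made between these groups, and no p-value was computed. Levels are counts per 1000000 UMIs (CPM) with exact Poisson 95% intervals, which cover counting error only. Ranges over suffixes are given as a description, and the part of the groups of mice in them was not tested. The 6 libraries were sequenced in 3 batches whose members are not given, and the part of these batches in any difference between suffixes was not tested.

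Many barcodes were shared between suffixes. Of 29579 distinct barcode sequences, 3890 occurred with more than 1 suffix and 490 with all 6, and each of the 15 pairs of suffixes shared 509 to 3428 sequences. The 14489 kept barcodes of such sequences made up 37.4% of the kept barcodes, including 35.3% of microglia-like but 4.98% of monocyte-lineage cells. Copies resembled each other. Where a microglia-like copy held an Ifitm3 UMI, 50.1% of the other copies did so too, against 4.60% where it held none. Shared microglia-like barcodes were shallow, with a median of 943 UMIs against 3113 in the others. Some of the values that rest on microglia are therefore also given without shared barcodes, a choice made after seeing the data. For the others this check is not printed.

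Cells were grouped by marker genes. A lineage gate needed at least 3 UMIs over 2 genes of its list and under 0.3% of UMIs on 5 microglial genes, among them Tmem119 and P2ry12, and 34853 cells (89.9%) with more microglial RNA than this were called microglia-like. Recruited cells numbered 514 (1.33%), namely 301 monocyte-lineage cells, 72 granulocyte-like cells and 141 NK-like cells. Monocyte-lineage cells were divided into 129 with UMIs of Ly6c2, a surface protein of classical monocytes, but not Cd209a, and 57 with UMIs of Cd209a, a lectin of monocyte-derived dendritic cells, but not Ly6c2. Another 57 held both and 58 neither. The leading genes of the gated groups went with their names. A further 271 barcodes passed a lineage gate but held microglial RNA above the limit and were kept out of the recruited cells, and 2898 passed no gate.

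All 4 members lie on chromosome 7 within 63.1 kb that hold 6 annotated genes (GENCODE, GRCm38). Ifitm2 occupies chr7:140954837-140955987 on the minus strand, Ifitm1 chr7:140967221-140969825 on the plus strand, Ifitm3 chr7:141009586-141010770 and Ifitm6 chr7:141015699-141017924, both on the minus strand. Their transcripts resemble each other. The longest identical stretch was 69 bases between Ifitm2 and Ifitm3, 64 between Ifitm1 and Ifitm3 and 17 to 25 between Ifitm6 and the others. Within the last 400 bases, nearest the 3′ end, it was 27 bases between Ifitm2 and Ifitm3 and 39 between Ifitm1 and Ifitm3. How reads that overlap such stretches were assigned was not tested. Ifitm2 overlaps Gm45717 on the same strand, to which 0 UMIs were assigned.

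The interferon-stimulated response element is shown because it is the sequence through which interferon-activated factors reach a promoter. Its core, GAAANNGAAA on either strand, was searched in RefSeq promoters (GRCm38.p6, from 250 bases before to 50 bases after each start). Of 27025 promoters 943 (3.49%) held it, as did 23 of 36 promoters (63.9%) of a list of interferon-induced genes, 1 of 16 (6.25%) of a list of genes that accompany Apoe in microglia, and 2 of the 4 members. In the windows below, each of 30 bases and read 5′ to 3′ on the strand of the gene, capitals mark the core.
Ifitm2, chr7:140955988-140956017, minus strand: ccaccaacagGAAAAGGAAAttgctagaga
Ifitm3, chr7:141010714-141010743, minus strand: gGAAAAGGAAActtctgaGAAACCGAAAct
Isg15, chr4:156200871-156200900, minus strand: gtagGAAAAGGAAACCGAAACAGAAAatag
Ifit3, chr19:34583363-34583392, plus strand: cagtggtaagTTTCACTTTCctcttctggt
Ifit3, chr19:34583397-34583426, plus strand: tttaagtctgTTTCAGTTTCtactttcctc
The match in Ifitm2 begins 46 bases before the RefSeq start. Ifitm3 held a pair of matches, which begin 3 and 20 bases after the RefSeq start, and the GENCODE start lies 26 bases further ahead, so that both are within exon 1. Isg15 held 3 overlapping matches that begin 78, 72 and 66 bases before the start. The promoters of Ifitm1 and Ifitm6 held no such letters in this window, which says nothing of whether a factor binds elsewhere.

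The 224 bases that end where the GENCODE transcripts of Ifitm2 and Ifitm3 begin are shown for both members that carry the core, with the core in capitals; that of Ifitm3 lies beyond the end of its run.
Ifitm2, chr7:140955988-140956211, minus strand: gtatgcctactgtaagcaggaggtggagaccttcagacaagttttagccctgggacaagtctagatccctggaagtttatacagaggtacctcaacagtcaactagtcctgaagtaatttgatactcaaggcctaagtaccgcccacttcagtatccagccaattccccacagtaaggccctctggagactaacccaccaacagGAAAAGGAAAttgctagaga
Ifitm3, chr7:141010771-141010994, minus strand: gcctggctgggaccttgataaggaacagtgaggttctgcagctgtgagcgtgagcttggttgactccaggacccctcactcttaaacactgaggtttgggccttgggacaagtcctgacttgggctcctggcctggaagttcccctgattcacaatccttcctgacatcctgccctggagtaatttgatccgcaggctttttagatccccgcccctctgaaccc

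The recruited cells held far more Ifitm RNA than microglia, but the members divided among them unevenly. Monocyte-lineage cells were rich in Ifitm3 and Ifitm2, granulocyte-like cells held 1340 to 2106 CPM of each member when pooled, in a mix that differed among suffixes, and NK-like cells held little of any. Over all recruited cells the CPM ratio to microglia-like cells was 540 (404 to 736) for Ifitm1, 164 (152 to 177) for Ifitm2, 47.9 (46.3 to 49.7) for Ifitm3 and 831 (636 to 1105) for Ifitm6. Each member was higher in recruited cells in 4 of 4 suffixes with at least 20 of them, and within suffixes, joined with Mantel-Haenszel weights, the ratios were 334, 122, 35.4 and 596. Of 11308 genes with at least 100 UMIs, 14.9% were at least 2-fold higher in recruited cells, as were 4 of 4 members, a count that the choice of the members fixed.

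Ifitm3, the member best known for antiviral action, was at 4322 CPM (4213 to 4432) in monocyte-lineage cells. Its level was 3287 to 4999 CPM over the 3 suffixes with at least 20 of these cells. In microglia-like cells it was 71.2 CPM (69.4 to 72.9), or 66.0 CPM without shared barcodes. With all barcodes it was 47.7, 38.6, 30.9, 99.6, 134 and 97.3 CPM in suffixes 1 to 6. The highest microglial value thus lay far below the lowest monocyte value. Granulocyte-like cells were in between at 1340 CPM (1137 to 1569), and NK-like cells held 121 CPM (85.9 to 167). The latter rested on 38 UMIs in 7 of 141 cells, 33 of them in suffix 6, with 182 CPM there against 55.2 CPM in the other suffix with at least 20 NK-like cells. NK-like and microglia-like levels overlapped over suffixes, and the ratio was 1.71 (1.21 to 2.34). Without suffix 6, a setting added after seeing the data, NK-like cells held 5 UMIs (37.8 CPM) and the ratio was 0.572 (0.186 to 1.33), on the other side of 1.

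Ifitm2, a close paralog that acts in late endosomes, was at 2030 CPM (1956 to 2106) in monocyte-lineage cells and at 2106 CPM (1849 to 2389) in granulocyte-like cells. These intervals overlapped, and the granulocyte-to-monocyte ratio was 1.04 (0.906 to 1.18). Without suffix 2 it was 0.714 (0.586 to 0.861) and without suffix 4 it was 0.969 (0.832 to 1.12). Microglia-like cells held 10.3 CPM (9.63 to 11), with 5.63 to 15.2 CPM over the 6 suffixes. In NK-like cells 7 UMIs gave 22.4 CPM (8.99 to 46.1), 2.17 times the microglial level with an interval of 0.871 to 4.49. This ratio was 1.40 (0.288 to 4.11) without suffix 4 and 4.04 (1.31 to 9.47) without suffix 6.

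Ifitm1, found mainly at the plasma membrane, was highest in granulocyte-like cells, at 1714 CPM (1483 to 1971) against 261 CPM (235 to 289) in monocyte-lineage cells, a ratio of 6.57 (5.50 to 7.84). Ifitm6, the myeloid member, had the same order, with 1766 CPM (1532 to 2027) and 561 CPM (522 to 601) and a ratio of 3.15 (2.69 to 3.68). Without suffix 2 the granulocyte level of Ifitm6 was 1095 CPM and the ratio 1.97 (1.55 to 2.46). Ifitm3 had the reverse order, with a granulocyte-to-monocyte ratio of 0.310 (0.263 to 0.364). In microglia-like cells Ifitm1 and Ifitm6 were near 0, with 50 UMIs (0.570 CPM) and 57 UMIs (0.650 CPM) among 34853 cells. NK-like cells held 0 UMIs of either gene, and the limit of 3 counts that 0 allows is 9.58 CPM.

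Granulocyte-like cells differed among suffixes. Their Ifitm1 was 2583, 3932 and 1269 CPM in suffixes 2, 4 and 6, those with 10 or more such cells, and Ifitm6 was 3215, 223 and 1114 CPM there. Ifitm1 was above the monocyte level in 3 of these 3 suffixes and Ifitm6 in 2. With 16 to 22 cells per suffix, these values rest on few cells, and suffix 4 held the most Ifitm1 with the least Ifitm6. Suffixes 1 and 3, with 4 granulocyte-like cells each, held 0 UMIs of Ifitm1 but 16 and 30 UMIs of Ifitm6.

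**Figure D1:**
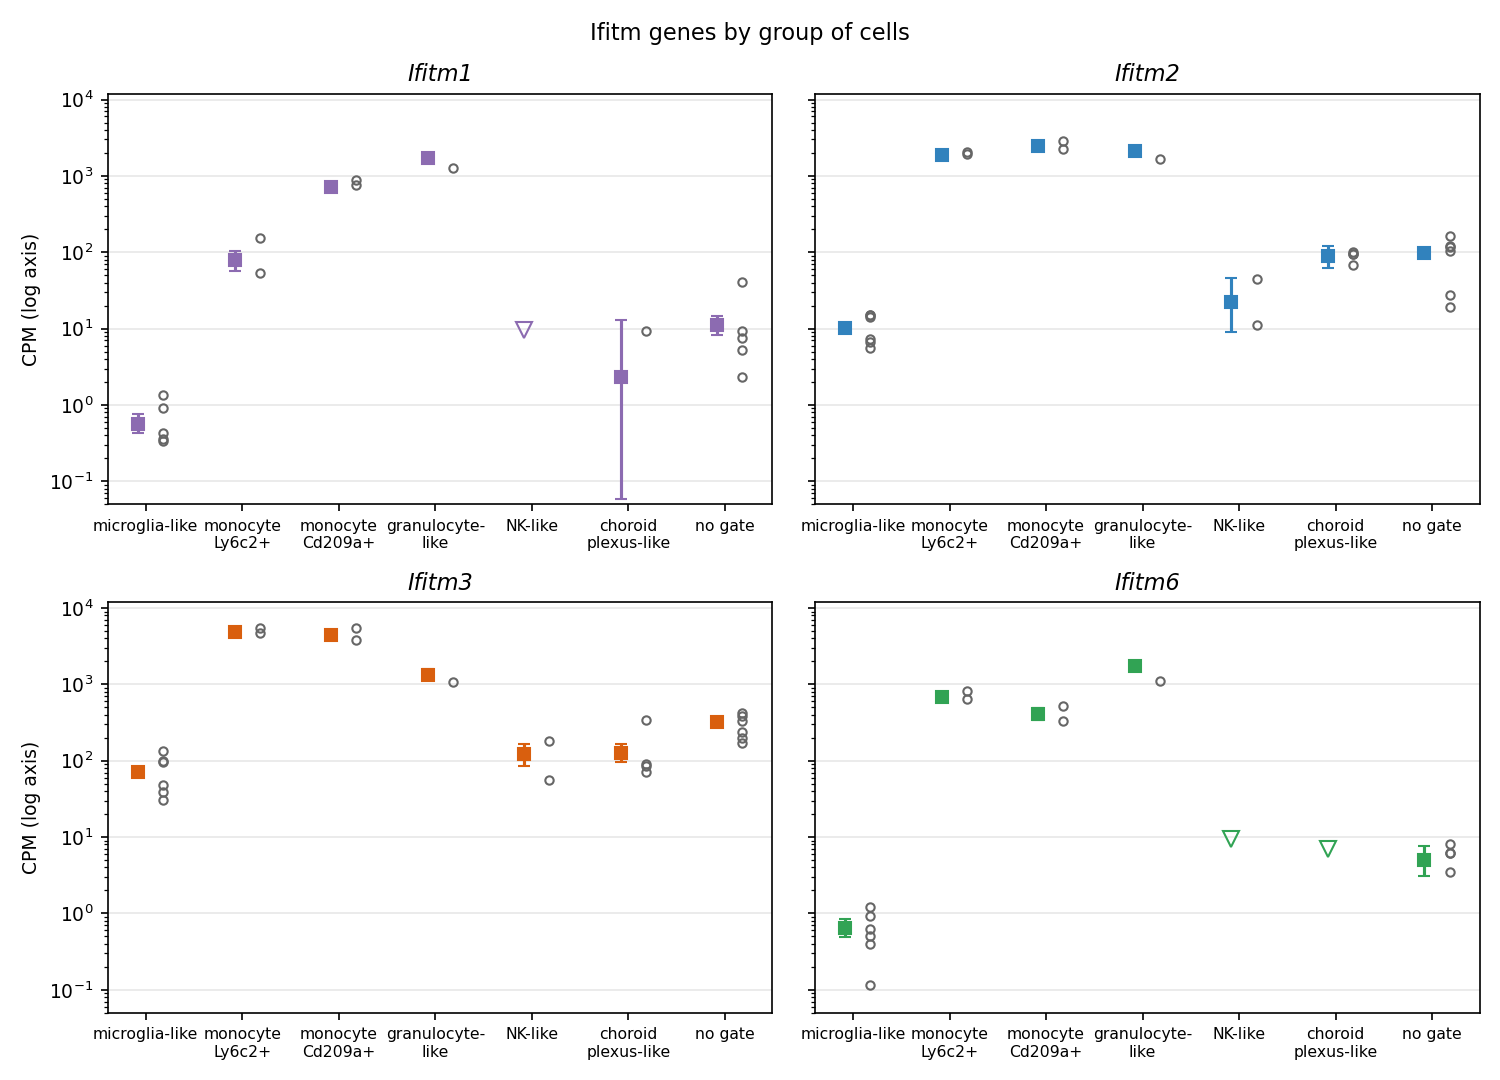
Levels of the 4 Ifitm genes in CPM (log axis) by gated group of cells. Filled squares are the pooled CPM with exact Poisson 95% intervals, open circles are suffixes with at least 20 cells of the group that held a UMI, and open triangles mark, for groups with 0 UMIs, the limit of 3 counts that 0 allows. Ifitm3 stood at 4900 CPM in Ly6c2+ monocytes and 71.2 CPM in microglia-like cells, while Ifitm1 peaked at 1714 CPM in granulocyte-like cells.

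Within the monocyte lineage the members differed in where they were highest. Ly6c2+ cells held 78.5 CPM of Ifitm1 and Cd209a+ cells 723 CPM, a ratio of 0.109 (0.0766 to 0.151), and Ly6c2+ cells were lower in 3 of 3 suffixes with at least 10 cells of both. Without suffix 6 Ly6c2+ cells held 34.2 CPM and the ratio was 0.0497 (0.0249 to 0.0903). Ifitm2 was at 1894 and 2471 CPM, a ratio of 0.767 (0.697 to 0.843) with Ly6c2+ cells again lower in 3 of 3 suffixes. Ifitm3 was nearly level at 4900 and 4446 CPM (ratio 1.10, 1.03 to 1.18), and Ifitm6 was higher in Ly6c2+ cells, at 676 and 415 CPM (1.63, 1.33 to 2.01), each in 2 of 3 suffixes only. Cells with both markers lay between for Ifitm1, at 219 CPM. Cells with neither marker had the lowest Ifitm3, 2832 CPM, and held 483 CPM of the microglial list against 323 CPM in Ly6c2+ and 93.7 CPM in Cd209a+ cells. The part of this microglial RNA in the lower level was not tested. Granulocyte markers summed to 6.70 CPM in Cd209a+ and 60.6 CPM in Ly6c2+ cells, with 6 and 3 of 8 at 0. Their part in the Ifitm1 levels was not tested.

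Each UMI stands for the 3′ end of a transcript, whatever its length. How reads over stretches shared by members were assigned was not tested, and shares of members carry this limit. The share of each member was taken in the UMIs of all 4. In microglia-like cells 86.1% of these UMIs were Ifitm3 and 12.5% Ifitm2. The monocyte lineage held 60.3% Ifitm3, 28.3% Ifitm2, 7.82% Ifitm6 and 3.64% Ifitm1. Granulocyte-like cells, when pooled, held 30.4% Ifitm2, 25.5% Ifitm6, 24.7% Ifitm1 and 19.3% Ifitm3. This mix was not shared by every suffix, since Ifitm6 made up 28.3, 2.42 and 21.8% of the member UMIs in suffixes 2, 4 and 6 and 76.9% in the 4 cells of suffix 3. Of all Ifitm3 UMIs in kept cells 43.5% were in microglia-like cells, which were 89.9% of the cells, and 41.9% in monocyte-lineage cells, which were 0.777% of them. For Ifitm6 these values were 4.42% and 60.5%.

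Shares of cells with a UMI were compared after each cell was thinned to 500 UMIs, with exact binomial 95% intervals. Ifitm3 was found in 75.1% of monocyte-lineage cells (69.8 to 79.9) and Ifitm2 in 59.1% (53.3 to 64.7), while Ifitm6 was found in 20.6% and Ifitm1 in 6.31%. Without thinning, at a median of 4750 UMIs, these shares were 91.0, 92.0, 61.8 and 23.6%. Ifitm1 was found in 19.3% of thinned Cd209a+ cells (10.0 to 31.9) and 1.55% of thinned Ly6c2+ cells (0.188 to 5.49), and before thinning in 52.6% and 13.2%, at medians of 5390 and 4337 UMIs. In granulocyte-like cells, at a median of 914 UMIs, Ifitm2 was found in 58.3%, Ifitm3 in 40.3%, Ifitm1 in 38.9% and Ifitm6 in 25.0% of thinned cells. Of 301 thinned monocyte-lineage cells 41 held no member, 89 held 1, 118 held 2, 52 held 3 and 1 held all 4.

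Microglia-like cells held an Ifitm3 UMI in 2.77% of thinned cells (2.60 to 2.95), or 2.20% without shared barcodes. Before thinning, at a median of 2520 UMIs, 8.19% held an Ifitm3 UMI. Among the groups low in these genes, NK-like cells held it in 0.709% (0.0180 to 3.89; median 1852 UMIs) and choroid plexus-like cells, which are epithelial, in 4.50% (2.08 to 8.37; median 1002 UMIs). The microglial shares of Ifitm1 (0.0143%), Ifitm2 (0.390%) and Ifitm6 (0.0201%) were at or below what these groups showed or allowed (0 of 141 NK-like cells allows up to 2.13%), so that these pooled shares alone do not show expression above free RNA. For Ifitm3 the pooled share did not stand apart from the choroid plexus-like cells either. Whether choroid plexus-like cells express Ifitm2 or Ifitm3 themselves was not tested. The level of Ifitm3 differed strongly among microglia-like cells, as described below.

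**Figure D2:**
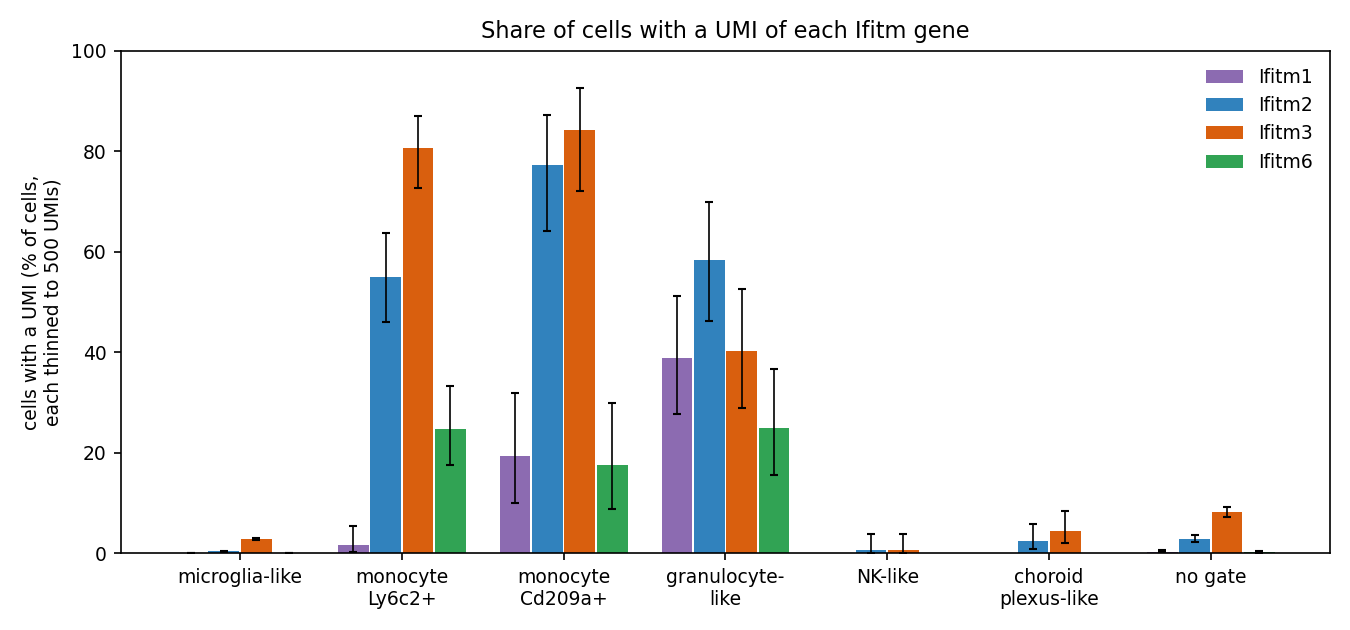
Share of cells with at least 1 UMI of each Ifitm gene, in % of the cells of each gated group after every cell was thinned to 500 UMIs. Bars start at 0 and error bars are exact binomial 95% intervals, drawn where at least 1 cell held a UMI. Ifitm3 was found in 80.6% of Ly6c2+ and 84.2% of Cd209a+ monocytes against 2.77% of microglia-like cells, and Ifitm1 in 38.9% of granulocyte-like cells.

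The genes whose pattern was most like that of each member were found by Pearson's r of log2(CPM + 10) over 9 gated groups among 11308 genes. These groups share libraries and free RNA, so r is a description. For Ifitm3 they were Pira2 (0.982), a paired immunoglobulin-like receptor, Plbd1 (0.981) and AI839979 (0.979). Ifitm2 was most like Gm5150 (0.978), Plbd1 (0.972) and Sirpb1a (0.966), a signal-regulatory protein. Ifitm6 was most like Mcemp1 (0.997), Ltb4r1 (0.992), a leukotriene B4 receptor, and Sirpb1b (0.983). Ifitm1 was most like Cd24a (0.967), a glycoprotein abundant on granulocytes, Lmnb1 (0.960) and Atg3 (0.954). Between members r was highest for Ifitm2 with Ifitm3 (0.964) and lowest for Ifitm1 with Ifitm3 (0.805).

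The interferon markers were also measured in the recruited cells. Isg15 was at 157 CPM in monocyte-lineage and 41.7 CPM in microglia-like cells, while Ifit3 was at 14.4 and 14.1 CPM. Over suffixes with at least 20 cells, Isg15 ran from 44.1 to 197 CPM and from 25.1 to 59.7 CPM, which overlap. Within the monocyte lineage it was at 291 CPM in Ly6c2+ and 50.2 CPM (28.1 to 82.8) in Cd209a+ cells. Cells with both markers held 106 CPM and those with neither 44.3 CPM. Of the 47 genes of the interferon list 46 were in the gene list and 45 had enough UMIs, and of these 26 were at least 2-fold higher and 0 lower in monocyte-lineage than in microglia-like cells, with a median ratio of 2.84 against 0.898 over all genes. The share of all genes higher there was 14.4%. Granulocyte-like cells, with 114920 UMIs in all, held 3 UMIs or fewer of 33 of the 45 genes, so that few could be called higher. In these cells 7 of 45 were higher and 10 lower, beside 7.03% of all genes higher. In NK-like cells 23 of 45 were higher and 0 lower, beside 16.2% of all genes higher. The part of an interferon response in the Ifitm levels of recruited cells was not tested. Among the other Ifitm genes, Ifitm10, the family member farthest away on chromosome 7, was at 49.0 CPM in microglia-like, 172 CPM in NK-like and 2.87 CPM in monocyte-lineage cells, and Ifitm7 held 19 UMIs in all microglia-like and 0 in monocyte-lineage cells. Ifitm5 held 3 UMIs in monocyte-lineage cells (2.16 CPM, 0.445 to 6.30) and 1 UMI in microglia-like cells (0.0114 CPM, 0.000289 to 0.0636), too few for a fold.

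To ask whether microglial Ifitm3 went with interferon-induced genes or with Apoe, microglia-like cells with at least 1000 UMIs (27364 cells) were thinned to 1000 UMIs and divided by their UMIs of Ifit3 and Isg15 together and by those of Apoe. The interferon division set 984 cells against 26380, and that of the extreme Apoe bins 4097 against 10368. Their ratios are therefore not on the same scale. Ifitm3 was higher with both. It was at 52.2 CPM in the 26380 cells with 0 interferon UMIs, 289 CPM in the 775 cells with 1 and 1303 CPM in the 209 cells with 2 or more. Over suffixes with at least 20 cells these levels ran from 17.6 to 95.4, from 146 to 469 and from 909 to 1613 CPM, without overlap. Cells with at least 1 such UMI held 516 CPM, 9.89 times (9.34 to 10.5) the level of cells without, and the ratio was 5.55 to 20.2 over 6 suffixes. Without shared barcodes the ratio was 10.8 (10.1 to 11.4), and the 3 levels were 47.0, 278 and 1297 CPM.

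By Apoe, the Ifitm3 level was 34.1 CPM in microglia-like cells with 0 to 2 Apoe UMIs per 1000, then 56.2, 73.8 and 123 CPM with 3 to 6, 7 to 14 and 15 to 29, and 158 CPM with 30 or more. The ratio of the highest to the lowest bin was 4.64 (4.29 to 5.03), and 1.39 to 10.2 over the 6 suffixes. Cells without an interferon UMI showed the same order, at 23.3, 37.5, 53.2, 98.2 and 128 CPM, a ratio of 5.50 (5.00 to 6.05). Over suffixes, the lowest of these bins ran from 13 to 67.8 CPM and the highest from 94.1 to 192 CPM, without overlap. Without shared barcodes the 5 levels were 23.1, 36.7, 51.3, 105 and 134 CPM and the ratio was 5.82 (5.21 to 6.50), although shared barcodes made up 3.86% of the cells in the lowest Apoe bin and 68.8% in the highest. The markers were not level in cells without an interferon UMI. Before thinning, Isg15 was at 13.4 CPM in their lowest and 27.3 CPM in their highest Apoe bin, and Ifit3 at 2.57 and 6.20 CPM. The part of an interferon response in this Apoe ratio was not tested. Choroid plexus-like cells held 128 CPM (96.1 to 166) of Ifitm3, about the level of the highest Apoe bin of cells without an interferon UMI. The median depth of the cells without an interferon UMI was 2889 UMIs in the lowest and 1710 UMIs in the highest Apoe bin. The part of free RNA and of depth in the Apoe ratio was not tested.

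Among cells with interferon UMIs the Apoe bins lay closer together. Among cells with 1 interferon UMI the highest Apoe bin was at 2.05 times (1.65 to 2.55) the lowest. Among those with 2 or more, Ifitm3 was at 1337, 1601, 1282, 1268 and 1071 CPM from the lowest to the highest Apoe bin, a ratio of 0.801 (0.654 to 0.981), and of 0.873 (0.706 to 1.08) without shared barcodes, an interval that holds 1. Correspondingly, the ratio of cells with to cells without an interferon UMI fell from 17.0 in the lowest Apoe bin through 13.8, 10.7 and 5.99 to 4.52 in the highest. The 5 bins with 2 or more interferon UMIs held 50, 36, 33, 36 and 54 cells. Over suffixes, Ifitm3 ran from 347 to 2634 CPM in the lowest of them and from 120 to 1699 CPM in the highest. Intervals of counting error do not cover this spread.

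**Figure D3:**
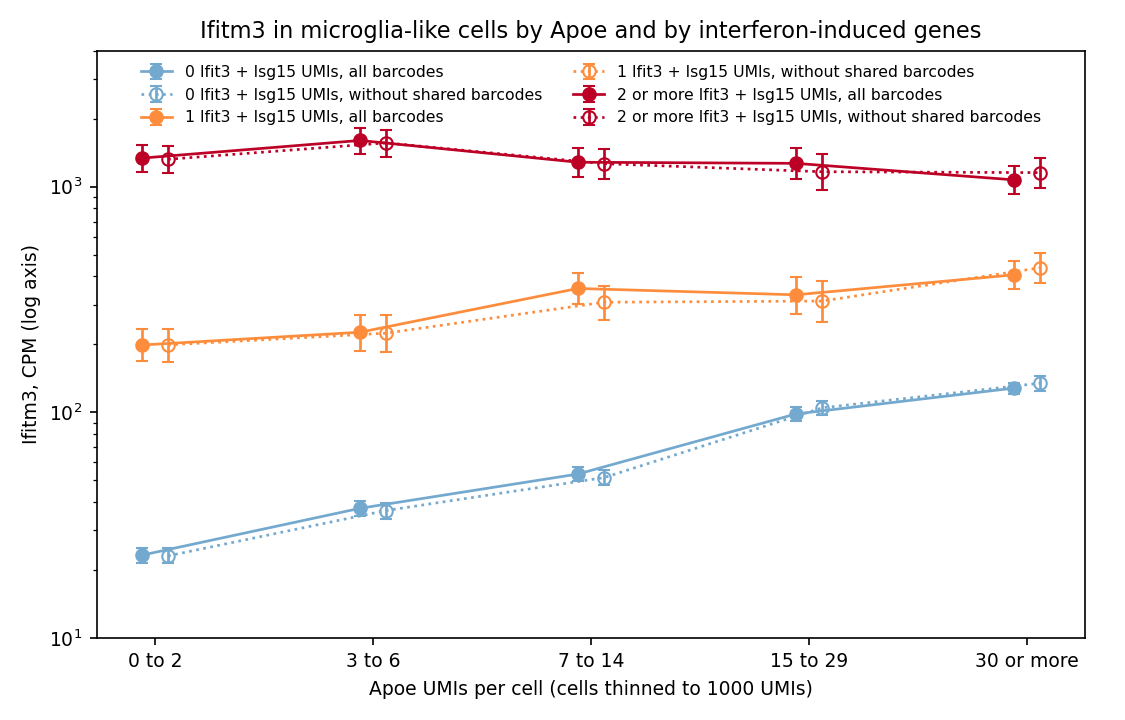
Ifitm3 level in CPM (log axis) of microglia-like cells by Apoe UMIs per cell thinned to 1000 UMIs, for cells with 0, 1 or at least 2 UMIs of Ifit3 and Isg15. Filled points hold all barcodes, open points leave out shared barcodes, and error bars are exact Poisson 95% intervals. Ifitm3 climbed from 23.3 to 128 CPM over Apoe bins in cells with 0 interferon UMIs and was 1337 CPM in the lowest and 1071 CPM in the highest bin of cells with at least 2.

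Most microglial Ifitm3 was nevertheless found in cells with 0 interferon UMIs per 1000. These cells held 70.8% of the Ifitm3 UMIs of the binned microglia-like cells (68.1% without shared barcodes) and were 96.4% of the cells. Those with 2 or more held 16.5% and were 0.764%. Of the 1271 microglia-like cells with an Ifitm3 UMI per 1000, 19.7% (17.6 to 22.0) also held an interferon UMI, against 2.81% (2.61 to 3.02) of the cells without Ifitm3. At least 15 Apoe UMIs were held by 53.8% (51.0 to 56.6) of the cells with and 25.4% (24.9 to 25.9) of those without Ifitm3. Without shared barcodes the shares with an interferon UMI were 24.1% and 3.01%, and those with at least 15 Apoe UMIs 38.1% and 13.5%. Neither mark was found in 35.2% of the Ifitm3-positive cells, against 72.7% of the cells without an Ifitm3 UMI. A count of 0 in 1000 UMIs does not show that a cell lacked these transcripts. Before thinning, cells with 0 interferon UMIs per 1000 held 18.6 CPM of Isg15 and 4.35 CPM of Ifit3. How many cells with an interferon response were among them was not tested.

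RNA of monocyte and microglial marker genes varied with the same bins. The summed level of 6 monocyte markers was 9.25, 21.1 and 87.1 CPM in microglia-like cells with 0, 1 and 2 or more interferon UMIs, against 6680 CPM in monocyte-lineage cells, and in the last of these bins 4 of the 6 markers, Ly6c2 included, were at 0. Whether this RNA came from other cells or from the microglia-like cells themselves was not tested, nor was its part in the Ifitm3 difference. Ifitm6, at 561 CPM in monocyte-lineage cells, held 3 UMIs in cells with an interferon UMI (0.912 CPM, against 0.661 CPM in those without). Over the Apoe bins the monocyte markers fell from 11.3 to 5.27 CPM while Ifitm3 was higher. The 5 microglial genes of the gate summed to 11530 CPM in the lowest and 6135 CPM in the highest Apoe bin.

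Ifitm2 was higher in both comparisons when pooled, by less than Ifitm3 in the interferon comparison. It was at 9.98 CPM in cells without and 23.4 CPM in cells with an interferon UMI, a ratio of 2.35 (1.83 to 2.97). Unlike Ifitm3, it was not higher with an interferon UMI in every Apoe bin. In the lowest, 3 UMIs gave 3.33 CPM (0.686 to 9.72) with such a UMI, against 6.70 CPM without. From the next to the highest bin Ifitm2 was at 8.98, 30.4, 37.2 and 49.3 CPM with and 7.03, 10.1, 15.9 and 20.2 CPM without. Its levels from the lowest to the highest Apoe bin were 6.60, 7.10, 10.9, 16.9 and 22.2 CPM, a ratio of 3.37 (2.77 to 4.09), or 5.12 (4.16 to 6.29) without shared barcodes. These levels were under the 88.1 CPM of choroid plexus-like cells. Ifitm1 and Ifitm6 were too rare for a statement, with 6 and 3 UMIs in cells with an interferon UMI and ratios of 3.34 (1.16 to 7.88) and 1.38 (0.276 to 4.26).

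Set among all genes, Ifitm3 was 27th by the interferon ratio and 124th by the Apoe ratio of 10918, with ratios of 9.89 and 4.64, and Ifitm2 was 162nd and 175th. At least 2-fold higher with an interferon UMI were 2.00% of genes tested (218 of 10916), and 3.64% (397 of 10917) in the Apoe comparison, leaving out the genes that defined the bins. Ifitm2 and Ifitm3 were among the 92 genes higher in both. These 92 were 42.2% of the genes higher with an interferon UMI and 23.2% of those higher with Apoe. The comparisons use the same cells, and the rule that chose Ifitm3 used them. Of the interferon list 42 of 43 genes were higher with an interferon UMI (median ratio 5.17 against 0.979 over all genes), and 14 exceeded Ifitm3. The largest ratios were those of Rsad2 (80.9), Ifit1 (37.4), Ifit3b (35.7), Ifit2 (32.8) and Cmpk2 (26.8), all genes of the antiviral response. Of the same list 20 of 45 were higher with Apoe (median 1.82 against 0.930), led by Ifi207 (14.5), Rsad2 (10.2) and Ifi204 (9.01), followed by Oas2 (5.95) and Ifit1 (5.50), and 7 exceeded Ifitm3.

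The genes that accompany Apoe in microglia behaved otherwise. Of 20 tested, 4 were higher with an interferon UMI (median 1.27) and 15 with Apoe (median 5.96). In the interferon comparison Ch25h (3.53), a cholesterol hydroxylase, Axl (2.49), a receptor for dying cells, and the chemokines Ccl2 (2.21) and Ccl12 (2.16) were the 4 higher genes, followed by Spp1 (1.94). With Apoe the largest ratios were those of Spp1 (84.5), the matrix protein osteopontin, Cst7 (53.6), a cystatin, Ch25h (35.2), Fabp5 (17.1) and Igf1 (12.9), and 11 of the list exceeded Ifitm3. Of 10 homeostatic microglial genes 0 were higher in either comparison, and 3 were lower with Apoe (median 0.599). Without shared barcodes these counts were 42 of 43 and 24 of 45 for the interferon list, 6 and 16 of 20 for the genes that accompany Apoe, and 4 of 10 homeostatic genes lower with Apoe.

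**Figure D4:**
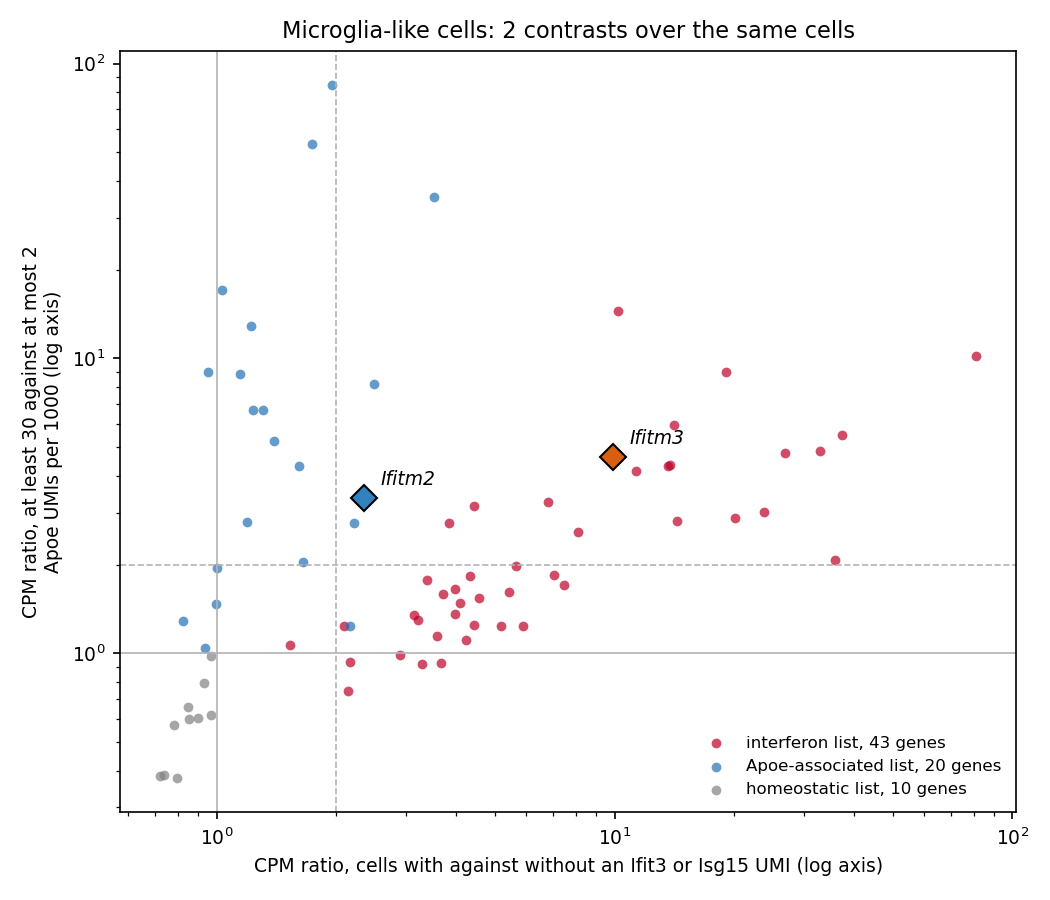
Ratio of CPM in microglia-like cells with to those without an Ifit3 or Isg15 UMI (x axis, log) against the ratio of cells with at least 30 to those with at most 2 Apoe UMIs per 1000 (y axis, log), a point per gene. Solid lines mark 1 and dashed lines 2. Ifitm3 was at 9.89 and 4.64. Of the interferon list 14 genes lay above it on the x axis and 7 on the y axis. Of the Apoe-associated list 0 lay above it on the x axis and 11 on the y axis. Ifitm2, at 2.35 and 3.37, lay between the medians of these lists.

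The relation of the Ifitm genes to Apoe differed between microglia and the monocyte lineage, in a division added after seeing the data. In monocyte-lineage cells Ifitm3 was at 4396 CPM with 0 to 2 Apoe UMIs per 1000 (164 cells), 4769 CPM with 3 to 14 (93 cells) and 2990 CPM with 15 or more (40 cells). The ratio of the last to the first was 0.680 (0.619 to 0.746), against 4.14 (3.85 to 4.45) for the same bins of microglia-like cells. Ifitm2 had ratios of 0.705 (0.617 to 0.804) and 2.98 (2.51 to 3.55). Both members were thus lower in Apoe-rich monocyte-lineage cells and higher in Apoe-rich microglia-like cells, and they kept these directions without shared barcodes, with 0.701 and 0.710 in the monocyte lineage.

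Ifitm1 had the widest gap, with 410 CPM in monocyte-lineage cells of 0 to 2 Apoe UMIs, 57.0 CPM in the next and 34.6 CPM in the last bin, a ratio of 0.0842 (0.0307 to 0.185). Ifitm6 was at 546, 614 and 513 CPM, a ratio of 0.939 (0.739 to 1.18) whose interval holds 1. Ly6c2+ cells held 8.28 times (7.29 to 9.43) the Apoe of Cd209a+ cells, so that the division by Apoe overlaps with that by Ly6c2 and Cd209a. Apoe was at 854 CPM in Cd209a+ cells, 2676 CPM with both markers, 7067 CPM in Ly6c2+ cells and 11467 CPM with neither. The part of these subsets in the monocyte ratios was not tested. Apoe was also found at 6697 CPM in NK-like and 4464 CPM in granulocyte-like cells, against 5623 CPM in the monocyte lineage, and P2ry12, a microglial receptor, was at 46.8, 94.1 and 109 CPM in the 3 monocyte bins. The part of free or microglial RNA in the monocyte ratios was not tested.

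**Figure D5:**
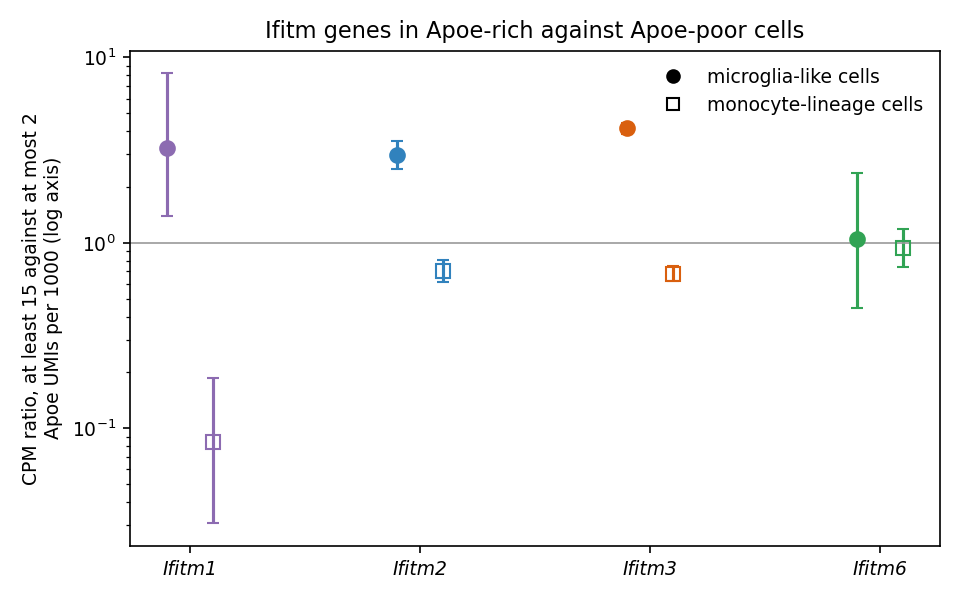
Ratio of CPM in Apoe-rich (at least 15 UMIs per 1000) to Apoe-poor cells (at most 2), on a log axis, for the 4 Ifitm genes in microglia-like cells (filled circles) and monocyte-lineage cells (open squares), with exact 95% intervals. For Ifitm3 the ratio was 4.14 in microglia-like and 0.680 in monocyte-lineage cells, on opposite sides of 1.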

How the data were processed

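CD45+ cells of 6 SCID mice with U87 xenografts were profiled with 10× Chromium 3′ v2 libraries. The authors aligned reads to mm10 with STAR in Cell Ranger 3.1, aggregated the 6 libraries without batch correction and analysed them with Seurat 3.1.5; the deposited matrix holds raw counts of UMIs per gene and barcode. The gene annotation release is not given in the sources used here. The labels tie barcode suffixes 1 to 6 to no sample and suffixes were not assigned by size or content, so the matrix was treated as 1 pooled sample with no test, and the number of unused columns with values per sample was 0.

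Kept were barcodes that held more than 200 and up to 2500 genes, with less than 5% of counts mitochondrial (38751; 1660 were not). A lineage gate needed at least 3 UMIs over 2 genes of its list, at least 2 times the next list and under 0.3% of UMIs on Tmem119, P2ry12, Gpr34, Siglech and Olfml3; microglia-like cells had at least 0.3% and 3 UMIs on these and no lineage gate. Near the limits, 1 NK-like, 7 monocyte-lineage and 1006 microglia-like cells had exactly 3 UMIs, and 30 recruited cells had a microglial share of 0.2 to 0.4%. No doublet caller was run; barcodes with lineage and microglial RNA were kept apart. CPM ratios and exact 95% intervals (Poisson for sums, binomial for shares and for ratios conditional on the summed UMIs) cover counting error only, and 3 counts are the limit that 0 allows. Genes with at least 100 UMIs were compared, and a gene was called higher at a ratio of at least 2 with over 3 UMIs, lower at 0.5 or below. Cells were thinned at random to 500 UMIs for shares and to 1000 for bins. Median UMIs per cell (for example 2520 in microglia-like cells) limit rare genes.

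Named genes were the members, other Ifitm genes, Ifit3, Isg15 and Apoe, the 3 genes most like each member and the 5 of each list with the highest ratio. The members and lists were chosen with earlier results of these data known. Of the lists, 1 gene each of the interferon and the Apoe-associated list was not analysed here. Python 3.11.15, numpy 2.4.6, scipy 1.17.1, pandas 2.3.3 and matplotlib 3.10.9 were used, and calculations were tested on simulated data. Coordinates are from GENCODE (GRCm38) and promoters from RefSeq (GRCm38.p6). Alternatives to the gates, filters, thinning, bins and pooling were tried.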

Additional observations from a re-analysis of the deposited data

Results flagged for a closer look

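Barcodes with over 2500 genes entered no comparison, yet they held Ifitm UMIs well above the level of microglia-like cells, which was the reason to list them. Over the 891 such barcodes that passed the mitochondrial limit, Ifitm1 was at 33.5 CPM, Ifitm2 at 136 CPM, Ifitm3 at 369 CPM and Ifitm6 at 44.9 CPM. By the same gates, 630 of them were microglia-like, with 162 CPM of Ifitm3, 24 were monocyte-lineage cells, with 3034 CPM, and 8 were NK-like, with 504 CPM. Another 210 held lineage and microglial RNA together, with 596 CPM of Ifitm3, and these carried 42.8% of the Ifitm3 UMIs and 66.8% of the Ifitm6 UMIs of all barcodes over the limit. Whether these are doublets was not tested.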

How the results depend on the processing

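Of 88 alternative values for 6 results, 0 changed direction and 48 lay within the interval of the main value. These results are large ratios of members chosen by their levels in these cells, so that the count of 0 says little. Outside these 6, the granulocyte-to-monocyte ratio of Ifitm2 and the NK-to-microglia ratio of Ifitm3 changed direction when a suffix was left out, as given above. No paired analysis was possible because the labels tie no barcode suffix to a mouse, suffixes were not assigned from the data, and no test was made. The recruited-to-microglia ratio of Ifitm1, Ifitm2, Ifitm3 and Ifitm6 became 2183, 212, 41.7 and 1269 when cells were thinned to 500 UMIs, and 1154, 135, 27.1 and 1193 when the 3 recruited groups had equal weight; Ifitm1 and Ifitm6 rest on 50 and 57 microglial UMIs. For Ifitm2 and Ifitm3 it was 180 and 52.7 with a microglial share under 0.1%, 126 and 35.6 without this limit, and 138 and 42.4 without the upper limit on genes. For Ifitm1 it was 399 in cells of at least 1000 UMIs. For Ifitm3 it was 52.2 without shared barcodes and 50.6 with the deepest copy of each only, both chosen after seeing the data. The ranges when a suffix was left out were 430 to 700.2, 146 to 189, 41.5 to 56.6 and 734 to 1076.

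The Ifitm3 ratio between microglia-like cells with and without an interferon UMI was 11.3 at 500 UMIs, 8.48 without the upper limit on genes, 8.22 within Apoe bins, 8.84 within suffixes, 13 with Ifit2, Irf7, Rsad2, Usp18 and Oasl2 as markers, 10.8 without shared barcodes and 10.5 with deepest copies, and 9.45 to 11.3 leaving out a suffix. The ratio between the extreme Apoe bins was 4.07 at 500 UMIs, 4.24 with a microglial share of at least 0.6%, 3.33 within interferon bins, 3.53 within suffixes, 3.38 with Apoe bins set by rank within suffixes, 5.46 without shared barcodes and 4.28 to 5.80 leaving out a suffix. The cause of these shifts was not tested. Depth limits Ifitm1 and Ifitm6 in microglia and all 4 members in NK-like cells.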

Other observations

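The 2898 cells that passed no gate were rich in Apoe (53256 CPM) and held 322 CPM of Ifitm3, 97.6 CPM of Ifitm2, 11.1 CPM of Ifitm1 and 5.00 CPM of Ifitm6, between microglia-like and monocyte-lineage cells for each member. Their Ifitm3 was at 461, 504 and 301 CPM in cells with 0 to 14, 15 to 29 and 30 or more Apoe UMIs per 1000, while Ifitm1 was at 54.9, 1.95 and 0.963 CPM. Shared barcodes made up 71.7% of these cells, and without them Ifitm3 was at 449 CPM and Ifitm2 at 167 CPM.

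Of the 271 barcodes with lineage and microglial RNA together, those with a granulocyte, monocyte or NK gate are given here, and the others are not. The Ifitm mix differed among these gates. The 58 with a granulocyte gate held 468 CPM of Ifitm1, 720 CPM of Ifitm2, 528 CPM of Ifitm3 and 748 CPM of Ifitm6. The 26 with a monocyte gate held 7.39, 865, 1834 and 296 CPM, and the 82 with an NK gate held 2.47, 9.87, 51.8 and 0 CPM. Ifitm1 rested on 1 UMI in the monocyte gate and 1 UMI in the NK gate.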
